A study of Homo sapiens with 6 samples.

Results

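The genes described here are the 3 glycerol 3-phosphate dehydrogenases (GPD1, GPD1L and GPD2) and 7 enzymes that carry glycerol 3-phosphate on to triacylglycerol (GPAM, AGPAT2, LPIN1, LPIN2, LPIN3, DGAT1 and DGAT2). They are 10 of the 27470 gene symbols in the counts and were taken by symbol. GPD1 was selected on its read counts, which were near 0 without Dox and rose with Dox, so its values are a description and carry no test. The others were chosen for their place in the pathway, with earlier results of these data known. Gene expression was measured by 3′ mRNA sequencing in 22Rv1-ABHD5 cells, a castration-resistant human prostate cancer line infected with a lentivirus that carries ABHD5 behind a doxycycline (Dox)-inducible promoter and selected with G418. The 3 control libraries came from cells without Dox and the 3 libraries overexpressing ABHD5 from cells with Dox, all with the transgene and all cultured for 48 h. Parent cells treated with Dox were not analysed here, so effects of Dox and of ABHD5 cannot be told apart. Nothing in the sources says whether the libraries of a condition came from separate cultures, so the p-values measure the spread between these libraries, which may be technical.

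Triacylglycerol is built on glycerol 3-phosphate. The cytosolic dehydrogenase GPD1 makes it from the glycolytic intermediate dihydroxyacetone phosphate with NADH, and the mitochondrial GPD2 turns it back, so that together they carry the reducing power of NADH into mitochondria. Glycerol 3-phosphate is then acylated to lysophosphatidate and phosphatidate, dephosphorylated to diacylglycerol and acylated once more, mostly at the endoplasmic reticulum. ABHD5 acts in the opposite direction, as the coactivator of the lipase ATGL, which is encoded by PNPLA2.

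Reads on genes numbered 3394672 to 5988151 per library without Dox and 3460471 to 7271771 with Dox. Levels below are read counts scaled to a common library size after TMM normalization (CPM). Reads come from the 3′ ends of transcripts, so CPM were not divided by transcript length. In RNA from a whole culture, more cells with a transcript and more transcript per cell cannot be told apart. ABHD5 had 63.5, 58.0 and 62.8 CPM without Dox and 125.9, 130.8 and 91.7 with Dox, so the libraries with Dox were the higher ones throughout, as the labels require. PNPLA2 rose from 35.3 ± 6.13 to 57.9 ± 15.4 CPM (SD, n = 3 each). All 11 luminal prostate markers listed were expressed. Their summed level was 1768 to 1875 CPM without Dox and 1168 to 1296 CPM with Dox. Of the 11, 6 were called lower at an adjusted p of 0.05, where 13.7% of all genes tested were. The part of this fall in luminal markers in the results below was not tested. Of 12233 genes tested across the transcriptome, 25.5% passed an adjusted p of 0.05 (quasi-likelihood test of edgeR, Benjamini-Hochberg adjusted), 1451 higher and 1674 lower with Dox. Scaled by library totals alone, 2179 were higher and 1136 lower, and the median gene shifted from a log2 fold change of 0.016 to 0.14.

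GPD1 (ENSG00000167588) is a protein-coding gene on the plus strand at chr12:50103982-50111313 of hg38, with 8 exons in its canonical transcript. Without Dox, GPD1 had 0, 1 and 3 reads in replicates 1, 2 and 3, which is 0, 0.310 and 0.524 CPM. With Dox it had 84, 71 and 188 reads, which is 18.3, 19.8 and 24.7 CPM. The gene was at or under the limit of detection, set at 3 reads in a library, in every library without Dox, and well above it in every library with Dox. Summed over libraries, 4 of 13371115 reads on genes were GPD1 reads without Dox and 343 of 15191677 with Dox. Against the highest of the limits without Dox, 0.930 CPM in replicate 2, the mean with Dox of 20.9 ± 3.36 CPM (SD, n = 3) was at least 22.5-fold higher, and the lowest library with Dox was at least 19.6-fold higher. The limit covers counting error only, because the reads carry no molecular identifiers. In the normalized values that the authors deposited for each library, GPD1 stood at 0, 1.07 and 2.02 without Dox and at 63.7, 68.1 and 87.1 with Dox.

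**Figure D1:**
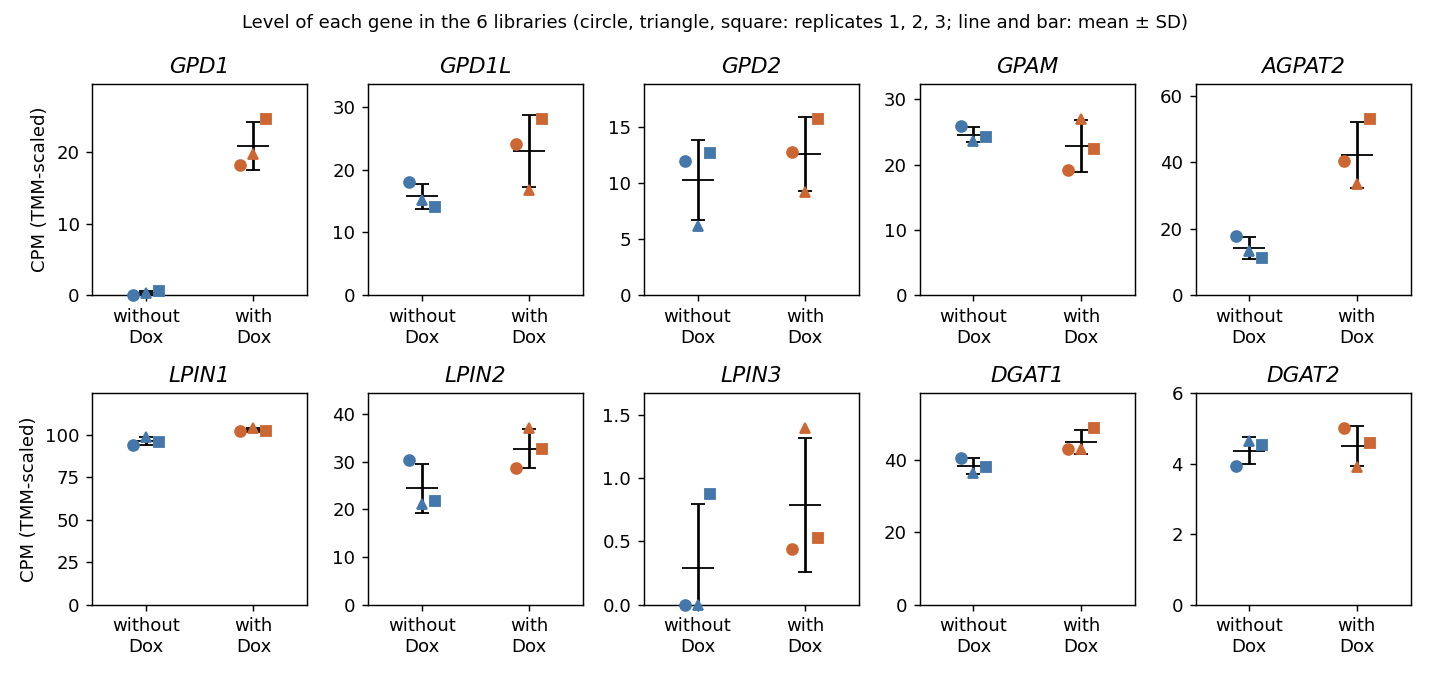
CPM of the 10 genes in each library, in panels with their own scales. Circles, triangles and squares are replicates 1, 2 and 3, in blue without Dox and orange with Dox. Bars are the mean ± SD. GPD1 sits at 0 to 0.524 CPM without Dox and 18.3 to 24.7 with Dox, and AGPAT2, at 33.4 to 53.1 CPM with Dox against 11.3 to 17.8 without, is the one of the others that passed the test.

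Of all symbols, 12795 had 3 reads or fewer in each library without Dox, and 19 of these passed the filter on low counts by their reads with Dox. GPD1 was among the 19. No other annotated gene overlaps GPD1, and no other gene's transcript matches the last 500 bases of its transcript at 90% identity over 80 bases or more, so no close copy that could share its reads was found. Of the genes tested within 100000 bases of GPD1, 1 was called higher, where 11.9% of all genes tested were. CERS5, a ceramide synthase 17976 bases away on the minus strand, rose from 38.0 to 64.7 CPM (log2 fold change 0.80, adjusted p = 0.00459, edgeR). The nearest neighbour, COX14, which lies 769 bases away and helps to assemble cytochrome c oxidase, had a log2 fold change of 0.15 and did not pass (adjusted p = 0.385, edgeR). SMARCD1, ASIC1, LIMA1 and RACGAP1 did not pass either, with log2 fold changes of -0.46 to 0.24.

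GPD1 is also a marker of fat cells and is regulated with the adipocyte program there. Of 10 other adipocyte markers listed, 1 had enough reads to be tested (LIPE, the hormone-sensitive lipase), and it did not pass. The summed level of the 10 was 10.997 to 21.94 CPM without Dox and 13.5 to 16.7 with Dox, and ADIPOQ and CIDEA had 0 reads in every library. PPARG, the master regulator of fat cell genes, also had 0 reads in every library. Stromal, basal and immune markers summed to at most 9.98, 0.261 and 2.79 CPM in any library. Of the 2 stromal markers tested, 1 was called higher, where 11.9% of all genes tested were. COL1A1 rose from 2.43 to 5.49 CPM (log2 fold change 1.22, adjusted p = 0.0313, edgeR), with overlapping libraries. Its part in the result for GPD1 was not tested.

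GPD1L (ENSG00000152642, chr3:32105689-32168709, plus strand) encodes a cytosolic protein like GPD1. It was detected in every library, at 18.02, 15.2 and 14.1 CPM without Dox and 24.1, 16.7 and 28.1 CPM with Dox. The conditions overlapped, because replicate 2 with Dox lay below replicate 1 without Dox. For GPD1L the log2 fold change came to 0.57 (standard error, SE, 0.21, 95% confidence interval 0.12 to 1.02), and the gene did not pass the threshold (adjusted p = 0.0577, edgeR). This call turned on the processing: GPD1L passed in 5 of 14 alternatives, with an adjusted p from 0.0112 to 0.240 over the 14. Without replicate 2 with Dox it passed, with a log2 fold change of 0.74 (adjusted p = 0.0112, edgeR).

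GPD2 (ENSG00000115159, chr2:156435290-156613735, plus strand) encodes the FAD-linked enzyme of the inner mitochondrial membrane. Its level was 12.02, 6.20 and 12.7 CPM without Dox and 12.8, 9.18 and 15.8 CPM with Dox. The conditions overlapped and replicate 2 was the lowest in both. GPD2 had a log2 fold change of 0.28 (SE 0.27, 95% confidence interval -0.29 to 0.86, adjusted p = 0.488, edgeR).

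The shares of the 3 dehydrogenases follow in part from the choice of GPD1 and are a description. GPD1 made up 0%, 1.43% and 1.91% of the reads on the 3 genes without Dox. The exact Clopper-Pearson 95% intervals, which cover counting error only, reached at most 7.70% in these libraries. With Dox its share was 33.1%, 43.3% and 36.0%. The share of GPD2 was 40.0%, 28.6% and 46.5% without Dox and 23.2%, 20.1% and 23.0% with Dox. The summed level of the 3 genes was 21.7 to 30.0 CPM without Dox and 45.6 to 68.6 with Dox. Within the pair GPD1L and GPD2, the log2 ratio of levels was 0.65 ± 0.55 without Dox and 0.84 ± 0.04 with Dox (SD, n = 3 each), a difference of 0.20 (exact permutation test over libraries, two-sided, p = 0.7). With 3 libraries against 3 this test cannot go below 0.1.

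**Figure D2:**
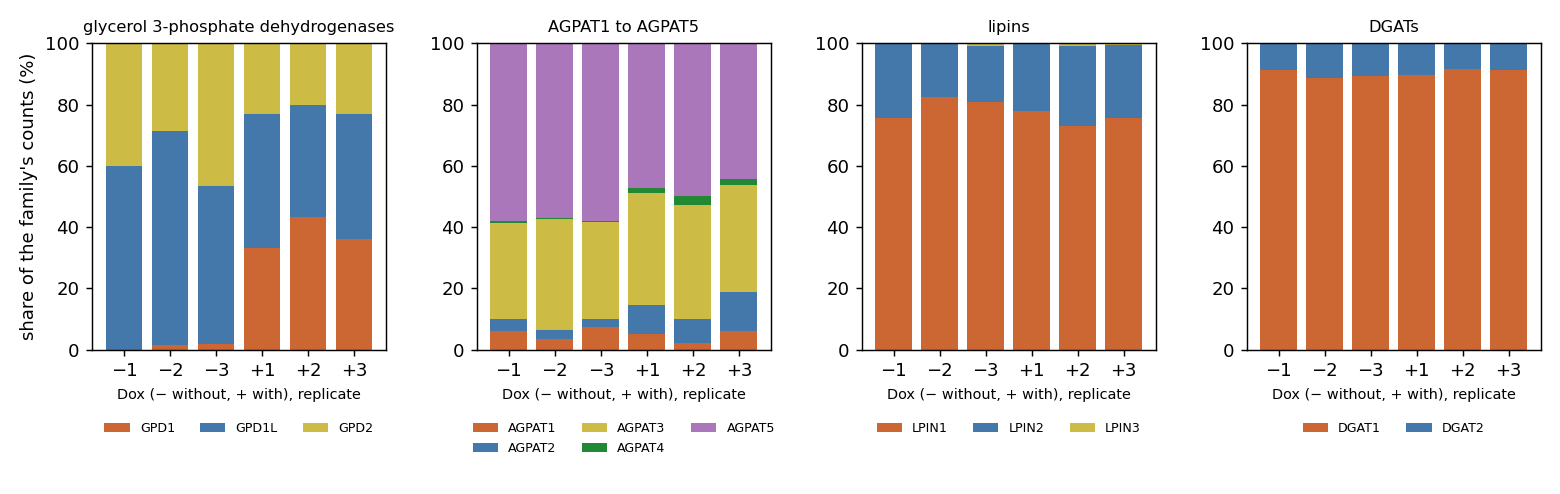
Share of reads (percent) that each gene took within its family in each of the 6 libraries, as stacked bars for the glycerol 3-phosphate dehydrogenases, AGPAT1 to AGPAT5, the lipins and the DGAT enzymes. GPD1 takes 33.1% to 43.3% of the dehydrogenase reads with Dox and at most 1.91% without, and AGPAT2 takes 7.67% to 12.8% of the AGPAT reads with Dox and 2.70% to 4.002% without.

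GPAM (ENSG00000119927, chr10:112149865-112215377, minus strand) encodes the glycerol 3-phosphate acyltransferase of the outer mitochondrial membrane, which adds the first fatty acid. It had 25.9, 23.6 and 24.3 CPM without Dox and 19.1, 27.0 and 22.3 CPM with Dox. The libraries with Dox held both the lowest and the highest value. GPAM had a log2 fold change of -0.12 (SE 0.18, 95% confidence interval -0.49 to 0.26, adjusted p = 0.684, edgeR), and its sign turned when libraries were scaled by their totals alone (0.0070).

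AGPAT2 (ENSG00000169692, chr9:136673143-136687457, minus strand, 6 exons) encodes the enzyme of the endoplasmic reticulum that adds the second fatty acid and so makes phosphatidate, and loss of it causes a lipodystrophy in people. AGPAT2 had 68, 43 and 65 reads without Dox, which is 17.8, 13.3 and 11.3 CPM. With Dox it had 186, 120 and 404 reads, which is 40.4, 33.4 and 53.1 CPM. The conditions did not overlap, and the lowest library with Dox was replicate 2. The mean rose from 14.1 ± 3.28 to 42.3 ± 9.97 CPM (SD, n = 3 each), a fold change of 3.06 (95% confidence interval 2.25 to 4.16). On the log2 scale the change was 1.61 (SE 0.21, adjusted p = 2.313e-05, edgeR). AGPAT2 passed in all 14 alternatives, with log2 fold changes of 1.40 to 1.79 and adjusted p from 1.275e-14 to 2.519e-04. No other annotated gene overlaps AGPAT2, no close copy of its last 500 bases was found, and its 1 tested neighbour within 100000 bases, SNHG7, had a log2 fold change of 0.15 (adjusted p = 0.645, edgeR).

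GPAM and AGPAT2 catalyse consecutive acylations, so their levels were compared. This is a ratio of 2 genes and not of the 2 steps, which other genes serve too. GPAT4, which acts on glycerol 3-phosphate like GPAM, had a mean of 80.9 CPM without Dox and 65.1 with Dox. AGPAT2 took at most 12.8% of the reads on AGPAT1 to AGPAT5 in any library. The log2 ratio of GPAM to AGPAT2 was 0.53, 0.80 and 1.06 without Dox and -1.06, -0.30 and -1.23 with Dox. GPAM was the more abundant in every library without Dox and AGPAT2 in every library with Dox. The ratio changed by -1.66, with no overlap between conditions (exact permutation test, two-sided, p = 0.1, the smallest that 3 against 3 libraries allow, and 0.45 adjusted over the 6 pairs compared).

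AGPAT2 was a minor member of its own family. It made up 4.002%, 3.01% and 2.70% of the reads on AGPAT1 to AGPAT5 without Dox and 9.19%, 7.67% and 12.8% with Dox. AGPAT5, which took 56.9% to 57.9% of the reads without Dox, took 44.4% to 49.8% with Dox. The level of AGPAT5 itself did not pass the threshold (log2 fold change -0.31, adjusted p = 0.0715, edgeR). The summed level of the family stayed at 419 to 444 CPM without Dox and 415 to 440 with Dox. AGPAT4, an acyltransferase best known from brain, was the other member that rose. It had 10, 6 and 11 reads without Dox and 37, 46 and 53 with Dox, which is 2.61, 1.86 and 1.92 CPM against 8.05, 12.8 and 6.96 CPM. Its libraries did not overlap, with a log2 fold change of 2.08 (SE 0.36, adjusted p = 3.83e-04, edgeR), past the threshold in each of the 13 alternatives in which it was tested. It stayed the rarest of the 5 genes in replicates 1 and 3 with Dox, at 1.83% and 1.68% of the reads, and was at 2.94% in replicate 2, above the 2.30% of AGPAT1.

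The 250 bases upstream of both risen AGPAT genes are shown, in the direction of transcription, from the RefSeq annotation of GRCh38.p14 (chr9:136687458-136687707, minus strand, and chr6:161274062-161274311, minus strand). Capitals mark matches on either strand to the GC box, with the letters GGGCGG, the CCAAT box, the nuclear receptor site with the letters AGGTCA, the E-box with the letters CACGTG and the TATA box with the letters TATAAA. Overlapping matches run together.
AGPAT2: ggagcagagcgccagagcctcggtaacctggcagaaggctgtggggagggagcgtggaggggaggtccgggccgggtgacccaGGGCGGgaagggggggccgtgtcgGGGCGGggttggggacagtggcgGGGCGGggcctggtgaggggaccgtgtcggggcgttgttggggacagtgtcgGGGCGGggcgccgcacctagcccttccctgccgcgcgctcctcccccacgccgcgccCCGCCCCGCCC
AGPAT4: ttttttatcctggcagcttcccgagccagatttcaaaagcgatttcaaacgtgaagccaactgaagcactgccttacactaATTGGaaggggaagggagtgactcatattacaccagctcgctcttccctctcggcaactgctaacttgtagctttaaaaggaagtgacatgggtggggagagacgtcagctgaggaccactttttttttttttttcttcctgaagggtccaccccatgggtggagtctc
The AGPAT2 window held 6 GC boxes and none of the other letters, and the AGPAT4 window held 1 CCAAT box and no GC box. The windows thus shared no motif of those searched. Over the 35116 windows of this length in the table, 42.6% held a GC box, 32.0% a CCAAT box, 12.1% the nuclear receptor site, 6.34% the E-box and 10.7% the TATA box. A window was found for 6 of the 10 genes, not among them GPD1, LPIN3, DGAT1 and DGAT2. Of those that did not pass, GPD1L, GPD2, LPIN1 and LPIN2 each had a window with 4 GC boxes, and the GPAM window held 1. GPD2, LPIN1 and LPIN2 also had a window with no GC box. A match is a run of letters and no evidence of binding.

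The lipins dephosphorylate phosphatidate to diacylglycerol. LPIN1 (ENSG00000134324, chr2:11677595-11827409, plus strand), the most abundant of them here, had 94.0, 98.9 and 95.7 CPM without Dox and 102.0, 103.8 and 102.5 CPM with Dox. All libraries with Dox lay above those without, but the step was small. LPIN1 had a log2 fold change of 0.10 (SE 0.12, 95% confidence interval -0.16 to 0.35, adjusted p = 0.609, edgeR). LPIN2 (ENSG00000101577, chr18:2885296-3013144, minus strand) had 30.3, 21.1 and 21.8 CPM without Dox and 28.7, 37.0 and 32.6 CPM with Dox. Replicate 1 without Dox lay above replicate 1 with Dox, so the conditions overlapped. For LPIN2 this value was 0.42 (SE 0.18, 95% confidence interval 0.04 to 0.80, adjusted p = 0.0981, edgeR). LPIN2 passed in 1 of 14 alternatives, scaling by library totals alone (0.54, adjusted p = 0.0348, edgeR), over a range of adjusted p from 0.0348 to 0.278. LPIN3 (ENSG00000132793, chr20:41340821-41360582, plus strand) had 0, 0 and 5 reads without Dox and 2, 5 and 4 with Dox. It did not pass the filter on low counts, and no change was detectable at this depth.

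LPIN1 made up 75.6%, 82.4% and 80.8% of lipin reads without Dox and 77.8%, 73.0% and 75.6% with Dox. The log2 ratio of LPIN1 to LPIN2 was 1.98 ± 0.31 without Dox and 1.64 ± 0.17 with Dox (SD, n = 3 each). The difference was -0.33, and the ratios of the conditions overlapped (exact permutation test, two-sided, p = 0.3, adjusted over the 6 pairs 0.45).

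The DGAT enzymes add the last fatty acid and are unrelated in sequence. DGAT1 (ENSG00000185000, chr8:144314584-144326910, minus strand) had 40.5, 36.3 and 38.1 CPM without Dox and 43.1, 43.1 and 48.7 CPM with Dox. The libraries of the conditions did not overlap. The log2 fold change was 0.24 (SE 0.14, 95% confidence interval -0.07 to 0.54), which did not pass (adjusted p = 0.253, edgeR, and 0.0761 to 0.491 over 14 alternatives). DGAT1 overlaps HSF1 on the opposite strand and a non-coding gene on its own strand that matches its last 500 bases, so its reads are uncertain as far as the counting did not use strand or left such reads out. DGAT2 (ENSG00000062282, chr11:75759512-75801535, plus strand), the enzyme that works at lipid droplets, was rare, at 3.92, 4.65 and 4.54 CPM without Dox and 5.002, 3.90 and 4.597 CPM with Dox. The libraries with Dox spanned those without. DGAT2 had a log2 fold change of 0.05 (SE 0.32, 95% confidence interval -0.62 to 0.72, adjusted p = 0.930, edgeR). DGAT1 took 88.6% to 91.2% of the reads on both genes without Dox and 89.6% to 91.7% with Dox. The log2 ratio of DGAT1 to DGAT2 differed by 0.19 between conditions (exact permutation test, two-sided, p = 0.2, adjusted over the 6 pairs 0.45).

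**Figure D3:**
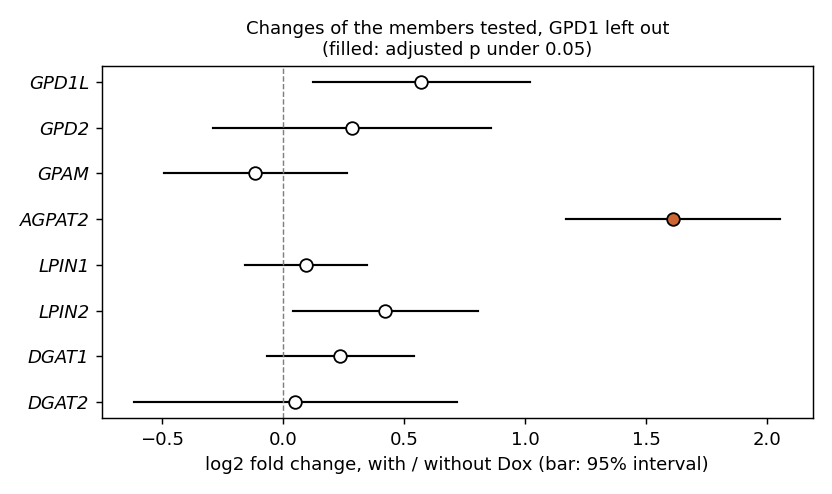
log2 fold change with against without Dox, with its 95% confidence interval, for the 8 genes other than GPD1 that passed the filter on low counts, in pathway order. AGPAT2 at 1.61 is the gene called, and the interval of GPD1L (0.12 to 1.02) leaves 0 out although its adjusted p is 0.0577.

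Counted together, 8 of the 9 genes other than GPD1 passed the filter and 1 of the 8 rose, AGPAT2, where 11.9% of all genes tested were called higher. None of the 8 was called lower, where 13.7% of all genes were. At an unadjusted p, the intervals of GPD1L and LPIN2 also left 0 out. The median log2 fold change of the 8 was 0.26 against 0.016 over all genes tested, and 7 of 8 were above 0. AGPAT2, LPIN1 and DGAT1 were higher with Dox with no overlap between conditions, as were 19.0% of all genes tested, and none was lower with no overlap, as were 20.5% of all genes (39.5% in either direction). The summed level of the 10 genes was 242.4, 219.6 and 224.0 CPM without Dox and 294.0, 295.3 and 332.8 with Dox. Without GPD1 and AGPAT2 the sum was 214.2 ± 9.54 CPM without Dox and 244.2 ± 10.1 with Dox (SD, n = 3 each), and the conditions still did not overlap.

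**Figure D4:**
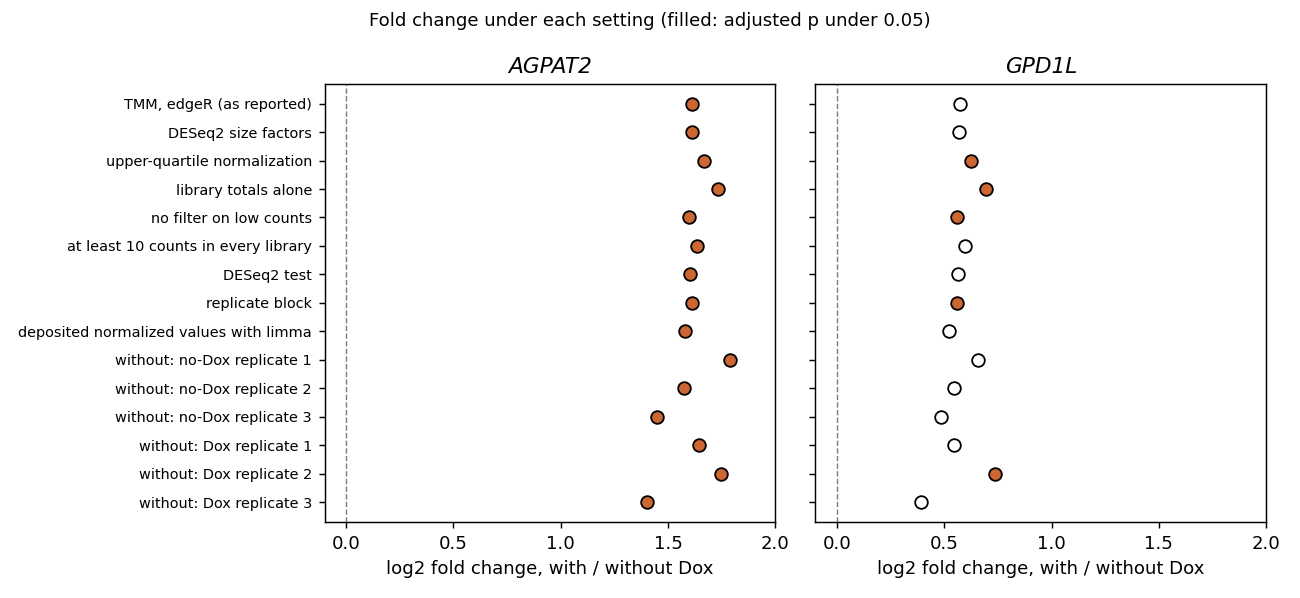
log2 fold change of AGPAT2 and GPD1L under the reported settings and each of 14 alternatives, filled where the adjusted p is under 0.05. AGPAT2 stays between 1.40 and 1.79 and is filled throughout, while GPD1L is filled in 5 alternatives.

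The genes whose pattern over the 6 libraries was most like that of GPD1 were OXR1, ZNF641, LINC00938, VAMP3 and RNF7, with a Pearson r of log2 CPM of 0.997 to 0.999. These correlations rest on the 2 conditions and on 6 libraries and are a description. OXR1, an oxidation resistance gene, had 54.8 ± 7.30 CPM without Dox and 191 ± 17.2 with Dox (SD, n = 3 each), and RNF7, a RING protein of cullin ubiquitin ligases, had 42.4 ± 7.34 and 160.0 ± 15.8 CPM. Among the pathway genes, LPIN1 had an r of 0.92 with GPD1, AGPAT2 of 0.91 and DGAT1 of 0.82. GPAM, at -0.39, was the only one of the 8 with a negative r.

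The other acyltransferases of glycerolipid synthesis numbered 16, of which 10 were tested, 1 rose (AGPAT4) and 0 fell, with a median log2 fold change of -0.03. The 1 rise is near the 11.9% of all genes tested that were called higher, and 13.7% were called lower. Among the acyltransferases that act on glycerol 3-phosphate like GPAM, GPAT3 had 7.19 ± 1.11 CPM without Dox and 11.7 ± 3.99 with Dox (log2 fold change 0.68, adjusted p = 0.0966, edgeR). GPAT4 had 80.9 ± 7.99 and 65.1 ± 3.66 CPM (-0.31, adjusted p = 0.0999, edgeR). GPAT2 had few reads, at 2.52 ± 0.52 CPM without Dox and 4.61 ± 1.40 with Dox (0.95, adjusted p = 0.0738, edgeR). All of them missed the threshold, GPAT2 and GPAT3 upwards and GPAT4 downwards. GPAT2 was higher and GPAT4 lower with no overlap between conditions, as were 19.0% and 20.5% of all genes tested. In the same list AGPAT4 was also higher, and AGPAT5 and LCLAT1 lower, with no overlap. The GPAT genes, AGPAT5 and LCLAT1 were named after their values were seen.

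Of 11 genes that supply or remove glycerol 3-phosphate by other routes, 7 were tested, 1 rose and 2 fell, with a median of -0.23, where 11.9% of all genes tested were called higher and 13.7% lower. PGP, a phosphatase that hydrolyses glycerol 3-phosphate, fell from 209 ± 23.5 to 133 ± 11.3 CPM (log2 fold change -0.64, adjusted p = 0.00125, edgeR). TPI1, which interconverts dihydroxyacetone phosphate and glyceraldehyde 3-phosphate, fell from 565 ± 44.5 to 399 ± 25.4 CPM (-0.50, adjusted p = 0.00628, edgeR). GK5, of the glycerol kinase family, rose from 44.4 ± 4.83 to 60.0 ± 7.54 CPM (0.44, adjusted p = 0.0391, edgeR). The call for GK5 was lost without replicate 1 or 3 without Dox (0.37 and 0.39) and without replicate 1 or 2 with Dox (0.48 and 0.33), and with DESeq2 (0.44), with an adjusted p of 0.00988 to 0.169 over 14 alternatives. AQP3, a channel for water and glycerol, had 53, 7 and 80 reads without Dox and 3, 2 and 6 with Dox, and did not pass the filter. Tested without a filter, AQP3 had a log2 fold change of -3.87 (adjusted p = 8.912e-18, edgeR). This p cannot be set beside the others. In the fit without a filter AGPAT2 went from an adjusted p of 2.313e-05 to 1.275e-14 (edgeR), at log2 fold changes of 1.61 and 1.60. AQP3 was named after its values were seen, and its libraries without Dox were far apart.

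The 9 genes of the other routes for cytosolic NADH, the malate-aspartate shuttle and the lactate dehydrogenases, were all tested. Of these, 5 fell, where 13.7% of all genes tested were called lower, and 0 rose, with a median of -0.45. The lactate dehydrogenases LDHA and LDHB fell from 178 ± 17.5 to 118 ± 2.01 CPM (log2 fold change -0.60, adjusted p = 0.00163, edgeR) and from 907 ± 15.4 to 607 ± 40.8 CPM (-0.58, adjusted p = 0.00181, edgeR). GOT1, the cytosolic aspartate aminotransferase, fell from 170 ± 18.4 to 111 ± 11.9 CPM (-0.61, adjusted p = 0.00234, edgeR). SLC25A11, the mitochondrial oxoglutarate carrier, fell by 0.49 on the log2 scale (adjusted p = 0.0109, edgeR), a call that was lost without replicate 2 without Dox (-0.39, adjusted p = 0.0645, edgeR, the highest of 14 alternatives, whose lowest was 0.00384). SLC25A13, an aspartate-glutamate carrier, was the fifth (-0.45, adjusted p = 0.0118, edgeR). Of the 4 genes not called, SLC25A12, the other aspartate-glutamate carrier, had a log2 fold change of 0.73 (adjusted p = 0.0788, edgeR). The malate dehydrogenases MDH1 and MDH2 had 0.07 and -0.28, and the mitochondrial GOT2 had -0.10. SLC25A12 was higher and MDH2 lower with no overlap between conditions, as were 19.0% and 20.5% of all genes tested.

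Of 16 genes that make or use phosphatidate and diacylglycerol besides the lipins, all were tested, 1 rose and 3 fell, with a median of 0.08. The 4 called are near the 25.5% of all genes tested that were called. PLPP2, a lipid phosphate phosphatase, rose from 9.20 ± 1.56 to 16.0 ± 3.32 CPM (log2 fold change 0.83, adjusted p = 0.0153, edgeR). It lost its call without replicate 2 or 3 without Dox (0.75 and 0.76) and without replicate 3 with Dox (0.65), with an adjusted p of at most 0.0751 over 14 alternatives. DGKZ, a diacylglycerol kinase, fell from 809 ± 177 to 456 ± 165 CPM (-0.82, adjusted p = 0.00647, edgeR). DGKZ lost its call with DESeq2 (-0.83, adjusted p = 0.0637, the highest of 14 alternatives, whose lowest was 3.54e-08), and its change ran from -1.15 to -0.62 with a library left out. CTDNEP1, the nuclear envelope phosphatase that acts on lipins, fell from 181 ± 11.4 to 132 ± 10.3 CPM (-0.45, adjusted p = 0.0113, edgeR), a call that was lost with library totals alone (-0.33, adjusted p = 0.0506, edgeR, the highest of 14 alternatives, whose lowest was 0.00552). CDS1, which takes phosphatidate towards phosphatidylinositol, had a log2 fold change of -0.38 (adjusted p = 0.0377, edgeR) and lost its call in 8 of 14 alternatives, among them each library left out except replicate 2 with Dox (-0.32 to -0.41).

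Of 18 known regulators of these enzymes, 16 were tested, 2 rose and 2 fell, with a median of -0.05. These 4 calls, too, are near the 25.5% over all genes tested. INSIG1, which holds back the sterol regulatory element-binding proteins, fell from 491 ± 68.1 to 221 ± 30.6 CPM (log2 fold change -1.15, adjusted p = 1.16e-05, edgeR) and passed in all 14 alternatives. MLXIPL, the carbohydrate-responsive factor ChREBP, rose by 0.68 on the log2 scale (adjusted p = 0.0332, edgeR). NR1H2, the liver X receptor beta, rose by 0.53 (adjusted p = 0.0417, edgeR), and USF2, an E-box-binding factor, fell by 0.38 (adjusted p = 0.0356, edgeR). These last calls were not stable. MLXIPL lost its call in each fit that left out 1 library except replicate 1 with Dox (0.54 to 0.75). NR1H2 lost it without replicate 2 or 3 without Dox (0.53 and 0.41) and without replicate 1 or 3 with Dox (0.54 and 0.36), and USF2 without replicate 1 without Dox (-0.32) and without replicate 1 or 2 with Dox (-0.40 and -0.30). MLXIPL and NR1H2 also lost it with the deposited normalized values, NR1H2 with DESeq2, and USF2 with upper-quartile normalization and with library totals alone.

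**Figure D5:**
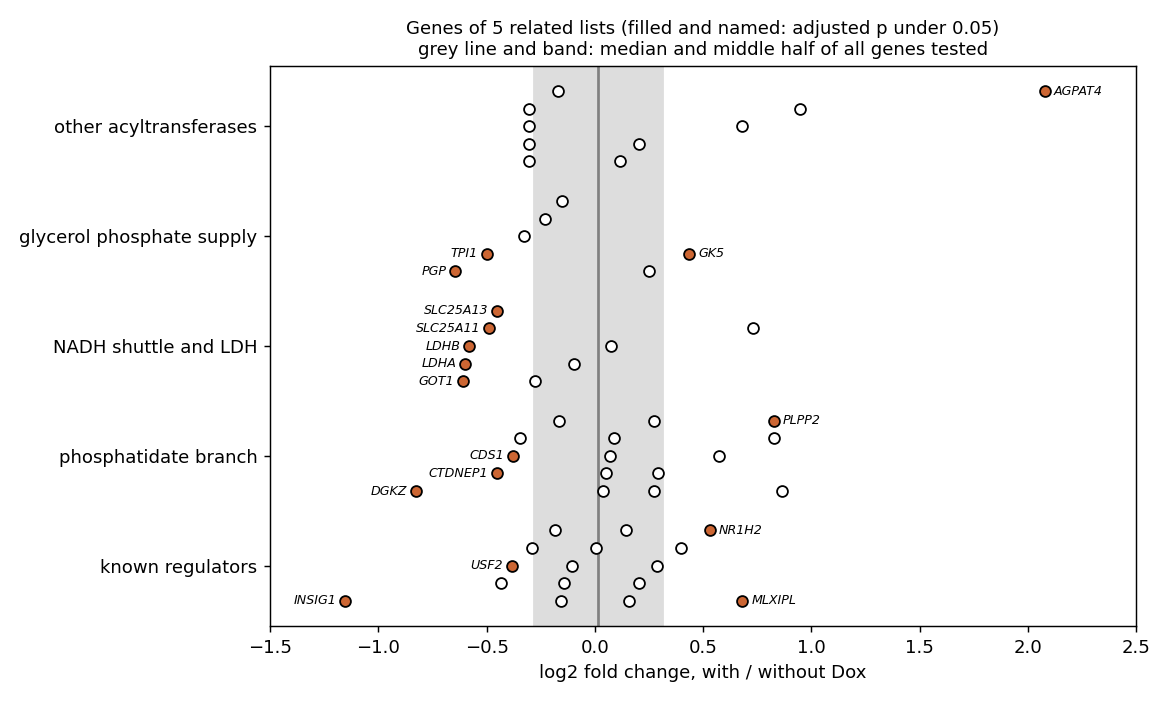
log2 fold change with against without Dox for each tested gene of 5 related gene lists; filled points are named and have an adjusted p under 0.05, and the grey line and band mark the median (0.016) and the interquartile range of all 12233 genes tested. AGPAT4 stands alone at 2.08 among the other acyltransferases, and the 5 called genes of the NADH list all lie below 0.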

How the data were processed

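RNA of 22Rv1-ABHD5 cells was profiled by 3′ mRNA sequencing in 3 libraries without and 3 with Dox. Single-end reads were aligned to hg38 by the authors with STAR, and raw counts for each gene symbol were deposited. The submitters' processing notes also name CASAVA 1.8.2, FastQC, HTSeq and edgeR. Annotation and strand use are not given in the sources used here, and the kit is named REV in the methods and FWD in the labels. The authors also deposited a normalized signal for each library, with no statement of the scaling. Counts had been planned from the single-library files, which hold that signal, so they came from the table of all libraries. Names differed between the single-library files in 27 rows, which were left out of the alternative that uses them. Rows that name no gene stayed out of library sizes. Reads on no gene made up 32.5% to 34.6% without Dox and 35.6% to 39.5% with Dox. Ambiguous reads made up 3.05% to 3.21% without Dox and 3.24% to 3.37% with Dox. The part of these differences in the results was not tested.

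Counts were tested with edgeR 4.0.16 (TMM, filterByExpr, quasi-likelihood test; p-values Benjamini-Hochberg adjusted over all genes tested, threshold 0.05) in R 4.3.3. All replicate pairs differed beyond sampling noise (chi-square per degree of freedom 4.35 to 12.7). Log2 ratios of levels between genes used CPM + 0.5, and correlations a prior count of 2. Alternatives were other normalizations and filters, DESeq2 1.42.0, the replicate number as a block and leaving out each library; the deposited signal, tested with limma 3.58.1 on log2(value + 0.5) where at least 3 libraries reached 10, was added after the data were seen. The genes and lists were chosen with earlier results of these data known. Named were all 10 genes, ABHD5 and PNPLA2, up to 4 called genes with the smallest adjusted p per list and direction, and the 5 genes most correlated with GPD1; any other gene was named after its values were seen. The test was checked on simulated counts. Positions are those of GENCODE 44 on hg38.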

Additional observations from a re-analysis of the deposited data

How the results depend on the processing

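AGPAT2, AGPAT4 and INSIG1 kept their direction and call in every alternative in which they were tested. So did ABHD5, PNPLA2, PGP, TPI1, LDHA, LDHB and GOT1. Over 26 named genes, which leave out the 5 most correlated with GPD1, and their 363 alternative values, 318 kept direction and call, 36 lost the call, 6 gained it and 3 changed sign. The number of pathway genes called besides GPD1 (1) was 2 with upper-quartile normalization, with no filter and with the replicate block, 3 with library totals alone (AGPAT2, GPD1L and LPIN2), and 1 to 2 with a library left out. For the other acyltransferases (1) it was 3 with library totals alone, 2 with the replicate block, 0 with at least 10 counts in every library, where AGPAT4 was not tested, and 1 to 2 with a library left out. The phosphatidate list (4) gave 2 to 4 with a library left out. The regulators (4) gave 2 with the deposited normalized values and 2 in every fit with a library left out. The NADH list (5) gave 4 to 5 and the glycerol phosphate list (3) 2 to 4. Genes called over the transcriptome (3125) ranged from 2181 to 3112 with a library left out. Signs turned for GPAM with library totals alone (0.0070) and for DGAT2 without replicate 1 without Dox (-0.034) or with Dox (-0.022), within a range of -0.034 to 0.12 over the libraries left out. The GPD1L/GPD2 ratio difference ranged from -0.053 (without replicate 3 without Dox) to 0.49. That of LPIN2/LPIN3 ranged from -0.93 to 0.035 (without replicate 1 without Dox). With 0.1 added, LPIN1/LPIN3 moved to -1.80 and LPIN2/LPIN3 to -1.46, as LPIN3 had reads near 0. The cause of the other changes was not tested. Libraries with the same replicate number had a correlation of deviations of -0.0096, 0.23 and 0.086, which does not settle whether they are paired. The replicate block called 3537 genes against 3125 as reported, 1650 higher and 1887 lower. Upper-quartile normalization made 55.6% of calls higher, library totals alone 65.7%, against 46.4% as reported. Depth limits GPD1 without Dox, LPIN3 and AQP3, which have few reads.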
